A study of Mus musculus with 21 samples.

Results

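Phf6 knockout (KO) MPP2 progenitors were set against wild-type (WT) MPP2 progenitors in 8 RNA-seq libraries, 4 KO and 4 WT, out of 21 libraries in the series. The members were taken by population label and genotype, as every library labelled MPP2. The KO libraries came from bone marrow of C57BL/6 mice aged 12 weeks whose genotype is given as Phf6 knockout, and the WT libraries came from wild-type mice of that strain and age. The sources used here do not give the KO allele or any Cre driver. Each library was made from 100 to 200 sorted cells, and the design describes 4 pairs of WT and KO mice. Cells were sorted on CD48, CD150, cKit, Sca-1 and lineage antigens; Flt3 was not stained, and no treatment is named. Libraries are called KO MPP2 1 to 4 and WT MPP2 1 to 4 after their replicate labels. A KO and a WT library of the same number are treated as a pair, although the labels do not say which mice were paired. Values are raw read counts, given here in CPM, the count of a gene relative to its library's size after TMM scaling, with no correction for gene length.

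PHF6 is an X-linked nuclear and nucleolar protein with zinc fingers of the plant homeodomain kind that binds chromatin and the NuRD remodelling complex, and it is lost by mutation in T-cell and myeloid leukaemias. Multipotent progenitors lie between the stem cell and the committed progenitors of the marrow. The MPP2 class carries CD150 and CD48 and is known for a leaning toward megakaryocytes and red cells.

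The 8 libraries held 24063679 to 31611366 counts. Kit, the receptor cKit, stood at 170 to 294 CPM in KO, against 177 to 274 CPM in WT, and Cd48 at 165 to 538 CPM in KO, against 230.5 to 517 CPM in WT. Slamf1, which encodes CD150, was detected in every library, at 17.7 to 78.1 CPM in KO, against 9.18 to 80.1 CPM in WT. Cd8a had no counts in the 4 KO libraries, and the T-cell gene Cd3e reached at most 0.775 CPM. Other lineage marker genes were read: Cd4 was at 1.42 to 5.45 CPM in KO, against 0.394 to 3.52 CPM in WT. Itgam reached 17.0 CPM in KO MPP2 1 and 7.88 CPM in WT MPP2 2, and Ly6g reached 27.3 CPM in KO MPP2 1. Ly6a, which encodes Sca-1, was at 1429, 158, 17.5 and 5.74 CPM in KO MPP2 1 to 4, against 264, 166, 17.3 and 31.3 CPM in WT MPP2 1 to 4. Libraries numbered 1 and 2 thus had more Ly6a than libraries numbered 3 and 4 in both genotypes, and the title numbers, 53 to 63 against 163 to 211, are split in the same way. Flt3, the receptor of lymphoid-primed progenitors, was at 137, 315, 14.7 and 4.81 CPM in KO, against 301, 591, 40.9 and 6.96 CPM in WT. The erythroid and megakaryocyte factor Gata1 ran the other way, at 52.6, 149, 336 and 382 CPM in KO, against 63.3, 41.3, 383 and 293 CPM in WT. The platelet chemokine Pf4 had the same split, with 88.3 and 116 CPM in KO MPP2 1 and 2 and 1222 and 1165 CPM in KO MPP2 3 and 4, against 94.6 and 52.1 CPM in WT MPP2 1 and 2 and 612 and 1127 CPM in WT MPP2 3 and 4. Pair 2 came from male mice by Xist and Ddx3y counts, and the other pairs from females.

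**Figure D1:**
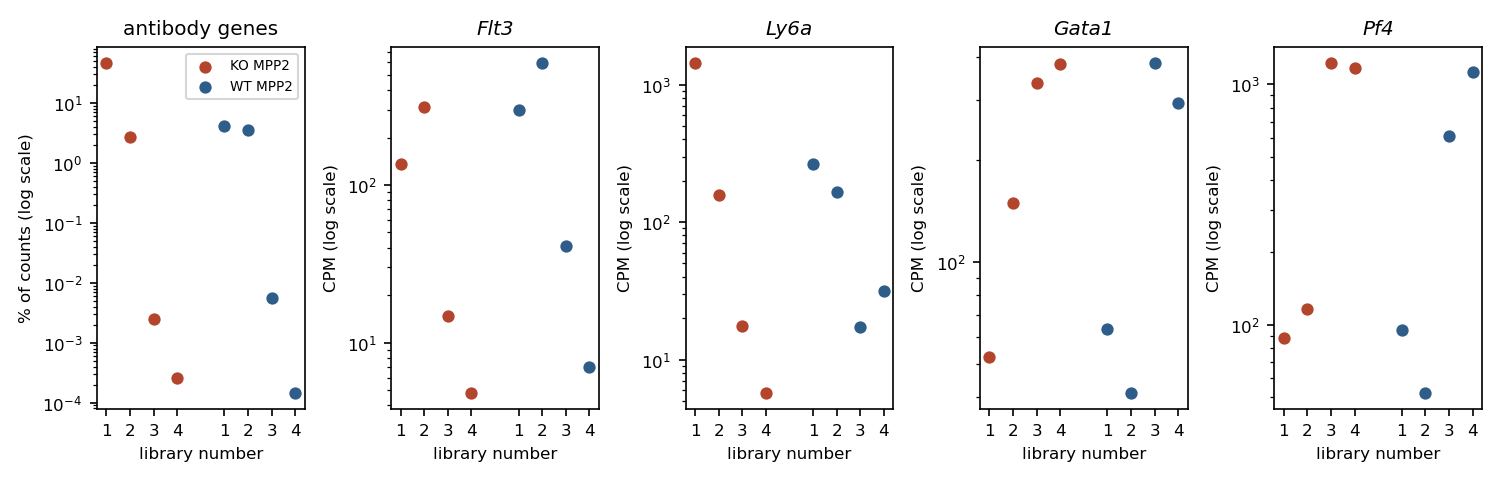
Share of counts in antibody genes (%, log scale) and levels of Flt3, Ly6a, Gata1 and Pf4 (CPM, log scale) in KO MPP2 1 to 4 (left, red) and WT MPP2 1 to 4 (right, blue), 1 point per library. In both genotypes libraries 1 and 2 are high and libraries 3 and 4 low for antibody genes, Flt3 and Ly6a, Gata1 and Pf4 run the other way, and KO MPP2 1 is highest for antibody genes, at 45.8%.

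KO MPP2 1 stood apart. Antibody genes took 45.8, 2.67, 0.00248 and 0.000262% of counts in KO MPP2 1 to 4, against 4.08, 3.52, 0.00561 and 0.000147% in WT MPP2 1 to 4. The antibody light chain gene Igkc had 403890 CPM in KO MPP2 1, or 6256117 of its 31611366 counts. The TMM factor of this library was 0.496, against 0.933 to 1.05 in the other MPP2 libraries. CPM in KO MPP2 1 are thus relative to a scaled size of 15489660, and are not shares of its counts. The plasma cell factor Xbp1 had 3367 CPM in KO MPP2 1. In the other KO libraries Xbp1 was at 134 to 198 CPM, and in WT at 113 to 293.5 CPM. The granule gene Ngp of neutrophils had 3396 CPM in KO MPP2 1, at most 2.63 CPM in the other KO libraries and at most 2.33 CPM in WT. Gene list results are therefore given by pair or without KO MPP2 1 as well.

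Phf6, at chrX:52912266-52956943 on the + strand (mm10), was measured first, as a check of the genotype labels. It had 12.3, 11.7, 11.3 and 11.9 CPM in KO MPP2 1 to 4 (190, 290, 318 and 335 counts), against 210, 154, 61.1 and 126 CPM in WT MPP2 1 to 4 (5204, 3770, 1862 and 3014 counts). The KO values lay within a narrow band and the WT values spread more widely, and the groups did not overlap. Phf6 fell, with a mean of 11.8 ± 0.412 CPM in KO, against 138 ± 61.7 CPM in WT (SD, n = 4 each) and a log2 fold change, KO over WT, of -3.54 ± 0.48 (SE; edgeR adjusted p = 0.0104). The exact two-sided permutation test over the 8 libraries gave p = 0.0286, the smallest that 4 against 4 allows. KO libraries kept Phf6 reads well above the floor of 3 counts, which is 0.0985 to 0.194 CPM per library, and which part of the gene they cover cannot be seen from counts per gene. With the pair as a block the adjusted p was 0.0556, and it was 0.0518 without KO MPP2 2 and 0.0524 without KO MPP2 3. Of the other genes annotated within 500 kb of Phf6 on chromosome X, 11 were tested, with edgeR adjusted p from 0.738 to 1. Their log2 fold changes ran from -1.80 ± 1.17 (Gm28730) to 6.67 ± 2.22 (Ccdc160, SE). Ccdc160 was at 0.474 ± 0.61 CPM in KO, against 0 CPM in WT. Fam122b was at 27.3 ± 8.07 CPM in KO, against 15.6 ± 5.10 CPM in WT. The housekeeping gene Hprt was at 594 ± 87.1 CPM in KO, against 703.5 ± 72.7 CPM in WT.

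Few genes separated the genotypes. Of 21100 genes tested with edgeR's quasi-likelihood test, 3 passed a Benjamini-Hochberg adjusted p of 0.05 (0.0142%), 1 higher (0.00474%) and 2 lower (0.00948%) in KO, and 1417 (6.72%) had an unadjusted p under 0.05. DESeq2 called 33 genes (0.156%), and limma voom 3 (0.0142%). The fit with the pair as a block called 9 genes (0.0427%), of which 8 were antibody genes, and without pair 1 it called 3. Fold changes were small among well expressed genes: of 9299 genes with a mean of at least 10 CPM over the 8 libraries, 259 (2.79%) had a log2 fold change beyond 1 in either direction, against 39.5% of the 11801 genes below that level. In each of the 4 pairs the KO library was higher for 1497 genes (7.09%) and lower for 1408 genes (6.67%). The groups did not overlap for 301 genes higher in KO (1.43%) and 227 genes lower in KO (1.08%).

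**Figure D2:**
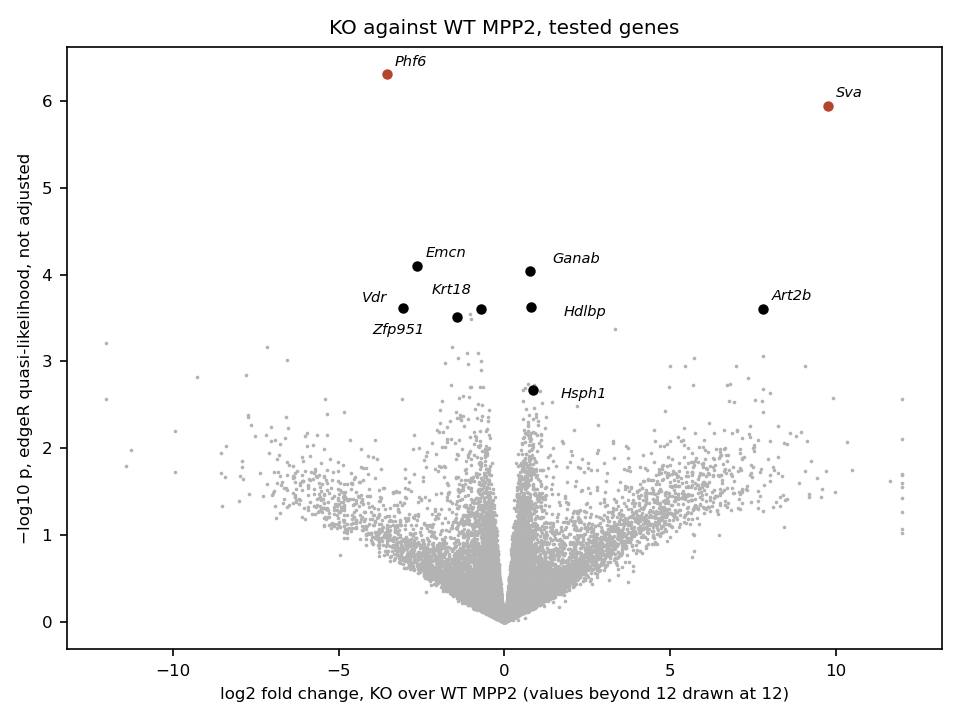
Log2 fold change (KO over WT MPP2) on the x axis against -log10 of the unadjusted edgeR p on the y axis, 1 point per tested gene, with 1 called gene not drawn. Red points are Phf6 and Sva, the named genes past the adjusted threshold, and black points are other named genes such as Emcn, Ganab and Art2b, whose adjusted p did not pass.

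Sva rose in KO MPP2. The gene encodes seminal vesicle antigen, a protein secreted by the seminal vesicle. It had 14, 180, 127 and 104 counts in KO MPP2 1 to 4, or 0.904, 7.28, 4.51 and 3.71 CPM, against 0 counts in each WT MPP2 library. Every KO library was above every WT library, with KO MPP2 1 lowest. Against the floor of 3 counts over the WT group, Sva was at least 152-fold higher (edgeR adjusted p = 0.0119). The call was lost with the pair as a block (adjusted p = 0.0772), without KO MPP2 2 or 3 (0.0518 and 0.0524), and without WT MPP2 1, 2 or 4 (0.0534, 0.0507 and 0.0515). It was also lost with the MPP2 libraries alone (edgeR adjusted p = 0.998) and without pair 2 (0.172). Within numbers 1 and 2 the edgeR adjusted p of Sva was 0.562, and within numbers 3 and 4 it was 0.173. Sva lies at chr6:42038394-42042851 (mm10), and 12 of the other genes within 500 kb were tested, with edgeR adjusted p from 0.875 to 1.

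Art2b was the other gene with no WT reads and at least 10 counts in every KO library; of the tested genes only Sva and Art2b had that pattern. It encodes a surface ADP-ribosyltransferase known from T cells. Its counts were 32, 20, 15 and 25 in KO MPP2 1 to 4, or 2.07, 0.809, 0.532 and 0.891 CPM, and 0 in each WT library. This is at least 32.9-fold over the floor of 3 counts in the WT group, but edgeR gave an adjusted p of 0.565 (DESeq2 0.000783). Art2b has a close paralogue, annotated as Art2a-ps, and the sources used here do not say how reads shared between copies were counted. The pattern of no WT reads was not present in the other populations: Art2b was at 14.2, 3.77 and 13.3 CPM in KO LT-HSC, against 4.29 and 1.77 CPM in WT LT-HSC, and at 0.342 to 2.71 CPM in KO MPP3, against 0 to 2.33 CPM in WT MPP3.

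The promoters of Sva and Art2b, the genes read in KO and at 0 counts in WT MPP2, and of Emcn, a surface gene lower in every KO than in every WT library, are shown from RefSeq (GRCm38.p6), from 250 bases before to 50 bases after the annotated start, 5′ to 3′ on the gene's strand. They lie at chr6:42038144-42038443 (+ strand), chr7:101581112-101581411 (- strand) and chr3:137340828-137341127 (+ strand). Capitals mark matches on either strand to GATAA (the GATA core, TTATC when reversed), TATAAA or TGTGGT (the RUNX core, ACCACA when reversed), which do not overlap here.
Sva: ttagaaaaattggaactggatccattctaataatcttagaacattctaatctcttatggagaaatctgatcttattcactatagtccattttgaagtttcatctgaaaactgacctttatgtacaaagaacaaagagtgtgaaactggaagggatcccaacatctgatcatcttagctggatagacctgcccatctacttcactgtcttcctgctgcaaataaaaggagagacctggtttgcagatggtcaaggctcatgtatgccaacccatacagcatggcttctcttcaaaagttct
Art2b: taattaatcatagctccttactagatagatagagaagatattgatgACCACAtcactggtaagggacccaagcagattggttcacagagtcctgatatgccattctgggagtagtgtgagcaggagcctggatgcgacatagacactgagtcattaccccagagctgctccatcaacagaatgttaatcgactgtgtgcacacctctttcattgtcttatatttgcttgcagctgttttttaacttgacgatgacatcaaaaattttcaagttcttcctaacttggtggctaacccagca
Emcn: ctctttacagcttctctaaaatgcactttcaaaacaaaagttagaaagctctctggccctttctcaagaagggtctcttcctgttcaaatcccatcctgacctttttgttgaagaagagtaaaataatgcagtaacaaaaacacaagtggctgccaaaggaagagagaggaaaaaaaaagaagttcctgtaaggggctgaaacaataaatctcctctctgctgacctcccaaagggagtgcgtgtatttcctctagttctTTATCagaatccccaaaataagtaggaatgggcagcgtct
Sva had no match, Art2b had 1 match to the RUNX letters, 204 bases before the start, and Emcn had 1 match to the GATA letters, 10 bases after the start. Of all 32851 promoters in the table, 25.4% hold the GATA letters, 13.6% the TATA letters and 16.8% the RUNX letters. The windows hold 0 CpG in Sva, 3 in Art2b and 2 in Emcn, and the median promoter holds 7.

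Emcn, endomucin, a sialomucin of endothelium that stem cells also carry, had the smallest p of the lower genes named after Phf6. It was at 6.59, 3.96, 3.58 and 0.642 CPM in KO MPP2 1 to 4, against 40.3, 26.4, 9.56 and 14.4 CPM in WT MPP2 1 to 4. All KO values lay below all WT values. Each pair had the same direction, but the rule that named Emcn asks for a small p and 1 direction in all pairs. The log2 fold change was -2.63 ± 0.53 (SE), with an edgeR adjusted p of 0.382 and 0.0565 with the pair as a block. It passed the threshold in edgeR with no filter on low counts (adjusted p = 0.0484) and in the fit that models numbers 1 and 2 apart from 3 and 4 (0.0400), and in DESeq2 (0.00036). Emcn did not pass in limma voom (adjusted p = 0.515) or in edgeR with the MPP2 libraries alone (0.998). With 1 MPP2 library left out its edgeR adjusted p was 0.147 to 0.93. Vdr, the vitamin D receptor, had 0.129, 1.98, 0.497 and 0.642 CPM in KO, against 9.59, 10.9, 1.48 and 5.2 CPM in WT. The groups overlapped by WT MPP2 3, which was under KO MPP2 2, although each pair was lower in KO (log2 fold change -3.04 ± 0.68; edgeR adjusted p = 0.565, DESeq2 0.00102).

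Among genes that had 10 CPM or more in the higher group and 1 direction in all pairs, the lower genes of smallest p included Phf6, Emcn, Krt18, Zfp951, Zfp189, Aph1c, Ypel1, Slc27a1, Ccdc69, Arxes2 and Neurl3. Apart from Phf6 none of these passed the edgeR threshold (adjusted p 0.382 to 0.738), and their values are given as a description. The keratin gene Krt18 was at 39.1, 36.2, 46.5 and 33.6 CPM in KO, against 64.8, 67.3, 62.3 and 58.0 CPM in WT, without overlap (log2 fold change -0.70 ± 0.16; DESeq2 adjusted p = 0.00443). The gamma-secretase subunit gene Aph1c was at 4.19 ± 1.41 CPM in KO, against 12.5 ± 3.24 CPM in WT, the zinc finger gene Zfp951 at 8.67 ± 2.98 CPM in KO, against 23.5 ± 6.94 CPM in WT (SD, n = 4 each). Zfp189, of the same kind, was at 13.2 ± 3.09 CPM in KO, against 26.7 ± 5.66 CPM in WT, and Slc27a1, a fatty acid transporter, at 10.8 ± 1.56 CPM in KO, against 17.8 ± 2.81 CPM in WT (SD, n = 4 each). DESeq2 also called these 4 genes (adjusted p 0.00972 to 0.0398). The remaining 4, Ypel1, Ccdc69, Arxes2 and the ubiquitin ligase gene Neurl3, had log2 fold changes of -1.41, -0.69, -1.61 and -0.73, and only Neurl3 overlapped between the groups, with KO MPP2 2 above WT MPP2 3.

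The noncoding gene 2610307P16Rik was the 1 called gene of the blocked fit that is no antibody gene (log2 fold change -1.29, edgeR adjusted p = 0.0245 with the block and 0.738 without). It was at 33.6, 27.3, 5.43 and 8.16 CPM in KO MPP2 1 to 4, against 55.9, 73.3, 14.75 and 23.9 CPM in WT MPP2 1 to 4. Each KO library was below its own WT partner while the groups overlapped, since numbers 1 and 2 were higher than numbers 3 and 4 in both genotypes.

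**Figure D3:**
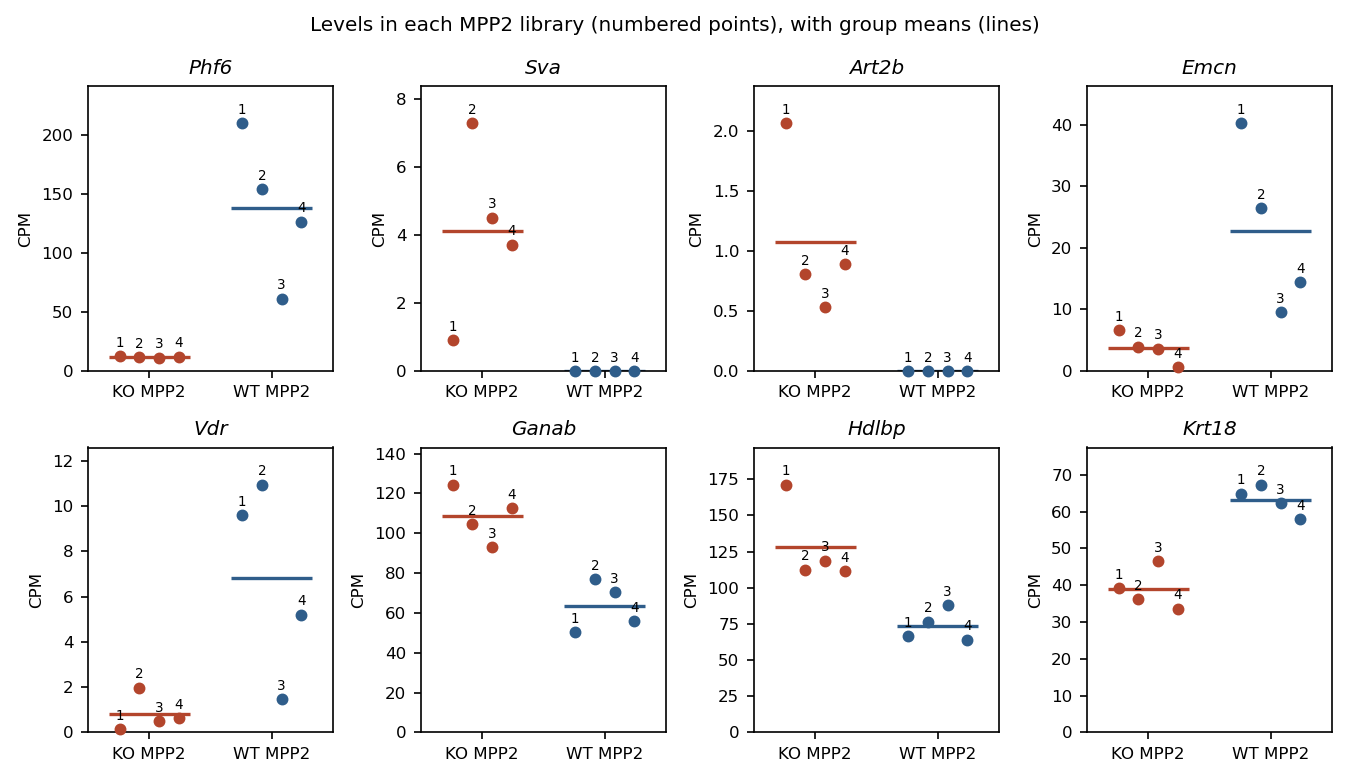
Levels (CPM, linear axis from 0) of 8 named genes in KO MPP2 (left, red) and WT MPP2 (right, blue), 1 point per library with its number and a line at the group mean. Phf6, Emcn and Krt18 are lower and Sva, Art2b, Ganab and Hdlbp higher in every KO library than in every WT library, and Vdr overlaps between the groups.

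The 12 higher genes by the same rule were Ganab, Hdlbp, Ap1b1, Prkaa1, Clic4, Zw10, Hsph1, Uspl1, Pom121, Tuba3b, Tpp1 and Sgsm3, and none of them passed in edgeR (adjusted p 0.382 to 0.738). Ganab, the catalytic subunit of glucosidase II, which trims N-glycans in the endoplasmic reticulum, was at 124, 105, 93.0 and 113 CPM in KO MPP2 1 to 4, against 50.2, 77.0, 70.3 and 55.8 CPM in WT MPP2 1 to 4. Hdlbp, the RNA-binding protein vigilin, was at 171, 112, 119 and 111 CPM in KO, against 66.5, 76.4, 87.9 and 64.1 CPM in WT. Neither overlapped between the groups, and their log2 fold changes were 0.78 ± 0.16 and 0.80 ± 0.18 (DESeq2 adjusted p = 0.00443 and 0.0249). Prkaa1, a catalytic subunit of the AMP-activated kinase, was at 57.2, 57.7, 52.3 and 62.4 CPM in KO, against 27.5, 39.6, 34.8 and 21.8 CPM in WT, again without overlap. Hsph1, a chaperone of the Hsp110 family, was at 75.3, 109, 83.9 and 85.7 CPM in KO, against 40.0, 35.6, 61.4 and 55.6 CPM in WT, and its groups did not overlap. The lysosomal peptidase gene Tpp1 had narrow groups, 164 ± 5.91 CPM in KO, against 110 ± 8.25 CPM in WT (SD, n = 4 each), and the nuclear pore gene Pom121 was at 16.4 ± 4.82 CPM in KO, against 7.80 ± 2.34 CPM in WT. Clic4, Uspl1 and Sgsm3 did not overlap either, with log2 fold changes of 0.61, 0.55 and 1.43, and those of Ap1b1, a subunit of the AP-1 clathrin adaptor, and Zw10, a kinetochore and vesicle tethering gene, were 0.73 and 0.85. Tuba3b rested on 1 library, with 56.0 CPM in KO MPP2 1 and at most 0.324 CPM in the other KO libraries and 0.0408 CPM in WT.

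Of 808 distinct members of the 35 gene lists that were tested, none passed in edgeR or in limma voom, where 0.0142% of all tested genes did. An unadjusted edgeR p under 0.05 was found for 73 members, and for 6.72% of all tested genes. DESeq2 called 3 members, Emcn, Ganab and Slc7a11, and 0.156% of all tested genes. With no filter, or with the term for numbers 1 and 2 against 3 and 4, edgeR called 1 member, Emcn. Over all tested genes 7.09% were higher and 6.67% lower in all 4 pairs. Lists are therefore described by counts and medians, beside a median log2 fold change of 0.01 and shares of 51% with a higher and 48.3% with a lower fitted level in KO over all tested genes. Genes named from a list were its members of smallest p in these data, so they are neither typical members nor separate support for its median. Endoplasmic reticulum folding and stress genes had a higher fitted level in KO for 28 of 32, with a median of 0.57, and 12 of 32 were higher in all 4 pairs. Their medians were 0.97, 0.34, 0.38 and 0.22 in pairs 1 to 4. Hyou1, a chaperone of the endoplasmic reticulum, was at 15.0, 9.63, 10.7 and 16.6 CPM in KO, against 3.75, 6.65, 5.09 and 6.71 CPM in WT. Sec61a1, the core of the translocon, was at 247, 142, 132 and 181.5 CPM in KO, against 103, 86.4, 109 and 82.6 CPM in WT. Both were higher in every KO library than in every WT library, with edgeR adjusted p of 0.738. Without KO MPP2 1 the list had 22 of 32 members higher and a median of 0.17, and in pairs 2, 3 and 4 alone 15 of 32 were higher in all, where the share of all tested genes is 13.6%.

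Secretory pathway and coat genes had a higher fitted level for 30 of 32 (median 0.31), with pair medians of 0.54, 0.19, 0.07 and 0.13. Srpr, the receptor of the signal recognition particle, was at 192, 80.6, 86.8 and 108 CPM in KO, against 76.1, 69.8, 79.8 and 46.2 CPM in WT, and KO MPP2 1 was the highest. Lman1, a cargo receptor between the endoplasmic reticulum and the Golgi, was at 122.5 ± 16.4 CPM in KO, against 85.1 ± 14.7 CPM in WT without overlap. Antibody-secreting cells make much of this machinery, and their part in the levels of these lists was not tested. Of 18 tested B and plasma cell markers 13 had a higher fitted level (median 1.91, pair medians 2.47, -0.66, 0 and 0). The summed level of the 20 markers ran from 197 to 770209 CPM in KO and from 215 to 41119 CPM in WT. The highest sum was in KO MPP2 1, whose CPM are not shares of its counts. In pairs 3 and 4 Igkc was at 0 and 0.143 CPM in KO and at 0 CPM in both WT libraries. The folding list had medians of 0.38 and 0.22 in those pairs. Without KO MPP2 1 the secretory list had 24 of 32 higher and a median of 0.16.

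Amino acid response and tRNA synthetase genes had a higher fitted level for 28 of 29 (median 0.55), and 13 of 29 were higher in all 4 pairs. Aars, alanyl-tRNA synthetase, was at 62.6, 68.2, 67.6 and 103 CPM in KO, against 34.5, 37.9, 50.4 and 59.2 CPM in WT, without overlap (log2 fold change 0.73 ± 0.23; edgeR adjusted p = 0.738). Vars, valyl-tRNA synthetase, was at 183 ± 63.3 CPM in KO, against 113 ± 26.5 CPM in WT. Slc7a11, the cystine transporter, was at 8.97 and 3.73 CPM in KO MPP2 1 and 3, at 0.283 and 0.0357 CPM in KO MPP2 2 and 4, and at most at 0.122 CPM in WT. Its call by DESeq2 (adjusted p = 0.0149) thus rested on 2 of the 4 KO libraries. Pair medians of the list were 0.48, 0.45, 0.01 and 0.55, and without KO MPP2 1 it had 24 of 29 higher with a median of 0.52. Ribosome biogenesis genes had a higher fitted level for 36 of 40 (median 0.26), but pair medians ran from -0.19 in pair 1 to 0.79 in pair 4, with 0.39 and 0.05 in pairs 2 and 3, and the median was 0.41 without KO MPP2 1. In pairs 2, 3 and 4, 20 of 40 were higher in all and none was lower in all, among them Nat10, the RNA acetyltransferase of the nucleolus, at 58.9 ± 20.8 CPM in KO, against 33.9 ± 13.8 CPM in WT over all libraries. Ribosomal protein genes had a higher fitted level for 15 of 71 (median -0.08), with pair medians of -0.39 to 0.17, and limma voom put 35 of 71 higher, as the fit without KO MPP2 1 put 33 of 71.

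**Figure D4:**
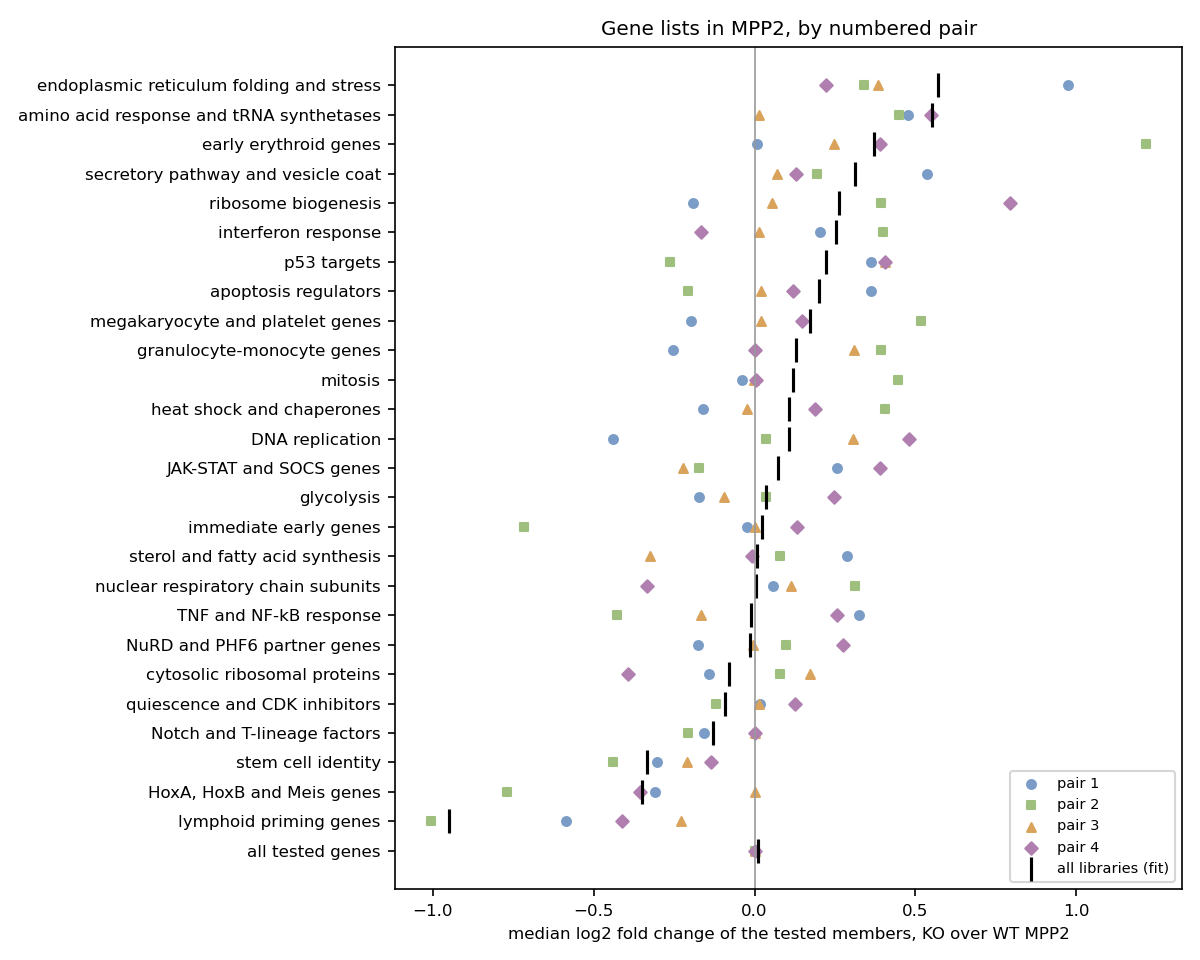
Median log2 fold change (KO over WT MPP2) of the tested members of each gene list, with 1 symbol per numbered pair and a black bar for the fit to all libraries. The folding list is above 0 in all 4 pairs and highest in pair 1, the lymphoid priming and stem cell lists are below 0 in all 4 pairs, and all tested genes sit at 0.

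Stem cell identity genes had a lower fitted level in KO for 22 of 30 (median -0.33), and 7 of 30 were lower in all 4 pairs. Pair medians were -0.30, -0.44, -0.21 and -0.13. Mecom, a zinc finger factor of stem cells, was at 14.9, 22.2, 10.6 and 6.20 CPM in KO MPP2 1 to 4, against 57.6, 47.9, 23.2 and 14.6 CPM in WT MPP2 1 to 4. Each KO library was lower than its partner, and the groups overlapped because both genotypes had less Mecom in numbers 3 and 4 (log2 fold change -1.41 ± 0.51; edgeR adjusted p = 0.738 and 0.109 with the pair as a block). Ifitm1, an interferon-induced membrane protein carried by stem cells, was at 207.5 ± 73.3 CPM in KO, against 394 ± 179 CPM in WT. Of 19 HoxA, HoxB and Meis genes 13 had a lower fitted level (median -0.35), with pair medians of -0.31, -0.77, 0 and -0.35. Hoxa9, a factor of stem and progenitor self-renewal, was at 64.8, 53.0, 25.4 and 27.9 CPM in KO, against 115, 116.5, 51.9 and 59.4 CPM in WT, lower in KO in each pair. Without KO MPP2 1 the stem cell list had 9 of 30 higher (median -0.37) and the Hox list 4 of 19 (median -0.86).

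Lymphoid priming genes had a median of -0.95, the lowest of the 35 lists in this fit, with a lower fitted level for 15 of 20 and pair medians of -0.59, -1.01, -0.23 and -0.41. The kinase gene Lck was at 12.5, 25.1, 6.32 and 3.71 CPM in KO, against 30.2, 68.1, 14.9 and 5.66 CPM in WT. The genome organiser Satb1 was at 24.02, 68.7, 12.3 and 10.3 CPM in KO, against 124, 154, 12.8 and 19.5 CPM in WT. Both were lower in KO in each pair, as 6 of 20 members were, against 6.67% of all tested genes, and both were high in numbers 1 and 2 of either genotype, like Flt3. Within numbers 3 and 4 the median was -0.64 and 4 of 19 were higher, and without KO MPP2 1 the median was -1.34 and 1 of 19 was higher. The list holds the antibody gene Ighm, so its summed level in KO MPP2 1 is set by antibody reads. Gata3, a T-lineage factor also present in stem cells, is not a member of the lymphoid priming list. Its level was 7.75, 7.36, 5.96 and 1.82 CPM in KO, against 24.2, 14.1, 12.6 and 8.18 CPM in WT. The groups did not overlap (log2 fold change -1.37 ± 0.40, edgeR adjusted p = 0.738). The list of Notch and T-lineage factors had a lower fitted level for 11 of 19 (median -0.13).

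Early erythroid genes had a higher fitted level for 22 of 28 (median 0.37), and 8 of 28 were higher in all 4 pairs, while none was lower in all. Pair 2 led with a median of 1.22, and the other pairs had 0.01, 0.25 and 0.39, with a median of 0.61 and 23 of 28 higher without KO MPP2 1. Cpox, an enzyme of haem synthesis, was at 27.7, 54.0, 85.2 and 58.4 CPM in KO, against 20.6, 30.0, 39.2 and 24.9 CPM in WT. Ank1, erythroid ankyrin, was at 4.00, 12.6, 11.3 and 8.16 CPM in KO, against 0.121, 2.77, 2.43 and 1.30 CPM in WT, and no WT library reached a KO library (edgeR adjusted p = 0.764). Late erythroid markers gave a summed level of 109 to 199 CPM in KO, against 75.1 to 191 CPM in WT. Megakaryocyte and platelet genes were higher for 19 of 30 (median 0.17) and granulocyte-monocyte genes for 17 of 30 (median 0.13), with pair medians on both sides of 0 in each list. Without KO MPP2 1 these medians were 0.41 for the megakaryocyte list and -0.19 for the granulocyte-monocyte list, where 13 of 30 were then higher.

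Signalling lists had medians between -0.01 and 0.25, and between -0.35 and 0.04 without KO MPP2 1. TNF and NF-kB response genes had a higher fitted level for 14 of 28 (median -0.01), but for 8 of 27 without KO MPP2 1 (median -0.35). Within it Gadd45b, a stress response gene, was at 35.6, 16.7, 8.59 and 3.81 CPM in KO, against 11.4, 6.61, 2.30 and 1.38 CPM in WT, and the chemokine gene Ccl3 at 5.62, 1.82, 0.852 and 0 CPM in KO, against 19.95, 15.7, 2.20 and 3.57 CPM in WT. These 2 genes ran in opposite directions, each the same way in all 4 pairs, and neither passed (edgeR adjusted p = 0.738 for both). JAK-STAT and SOCS genes were higher for 13 of 24 (median 0.07), and for 11 of 24 without KO MPP2 1 (median -0.25), with the kinase gene Tyk2 at 31.8 ± 6.08 CPM in KO, against 19.97 ± 3.78 CPM in WT. The fitted level was higher for 20 of 30 interferon response genes (median 0.25) and 15 of 22 p53 targets (median 0.22), but without KO MPP2 1 these medians were 0.04 and -0.01. Genes of NuRD and other PHF6 partners were higher for 11 of 22 (median -0.01), and for 16 of 22 without KO MPP2 1 (median 0.11), Smarca4, the BRG1 remodeller, being at 124 ± 27.2 CPM in KO, against 95.9 ± 14.1 CPM in WT. Medians of glycolysis (0.04), respiratory chain (0.00344), sterol and fatty acid synthesis (0.01), DNA replication (0.11), mitosis (0.12), heat shock (0.11), immediate early genes (0.02), quiescence and CDK inhibitors (-0.09), Notch and T-lineage factors (-0.13) and apoptosis regulators (0.20) lay between -0.13 and 0.20. Without KO MPP2 1 the immediate early genes had a median of -0.37, with 3 of 22 higher, against 13 of 23 in the fit to all libraries. The medians were then 0.25 for DNA replication, 0.24 for mitosis, 0.24 for heat shock, 0.07 for glycolysis, 0.04 for the respiratory chain, 0.01 for sterol and fatty acid synthesis, 0.04 for apoptosis regulators, -0.09 for quiescence and -0.18 for Notch and T-lineage factors.

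Markers of other cells were read for all lists. Neutrophil markers had a higher fitted level for 15 of 16, with pair medians of 8.61, -3.22, 0 and 0 and a summed level of 8.16 to 16206 CPM in KO, against 14.3 to 341 CPM in WT. T and NK cell markers summed to at most 24.9 CPM in KO, against 8.94 CPM in WT, and macrophage and monocyte markers to 17.5 to 3652 CPM in KO, against 27.2 to 625 CPM in WT. Mast cell and basophil markers summed to 1867 to 4025 CPM in KO, against 2147 to 3649 CPM in WT. Stromal and endothelial markers, a list that holds Emcn, had a lower fitted level in KO for 10 of 15 (median -0.34). Without KO MPP2 1, 5 of 15 were higher (median -0.44). The groups did not overlap for 1 member higher and 1 member lower in KO, against 1.43% and 1.08% of all tested genes. The list summed to 137.5 to 218 CPM in KO, against 142 to 201 CPM in WT. These sums overlapped while Emcn did not, and a sum can hide members that run in opposite directions. The part of such cells in the gene differences was not tested beyond these values and the results without KO MPP2 1, and in bulk libraries fewer cells of a type cannot be told apart from less RNA per cell.

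Whether the KO effect was particular to MPP2 was tested against MPP3 progenitors and long-term stem cells (LT-HSC) of the same study as the difference of the KO effects. MPP3 had 4 KO and 4 WT libraries, and LT-HSC had 3 KO and 2 WT. KO MPP3 1 held 25.8% antibody reads, with Xbp1 at 1467 CPM, KO MPP3 2 held 21.2% ribosomal RNA and 12.8% mitochondrial reads, and WT LT-HSC 2 had Ngp at 1043 CPM. No gene of 21100 passed against MPP3 or against LT-HSC in edgeR, with 943 (4.47%) and 759 (3.6%) at an unadjusted p under 0.05, and DESeq2 called 14 (0.0664%) and 17 (0.0806%). The Phf6 log2 fold change was -3.54 ± 0.48 in MPP2, -3.85 ± 0.49 in MPP3 and -3.96 ± 0.59 in LT-HSC. Sva was read in KO and at or near 0 in WT in every population, with 4.09 to 10.5 CPM in KO MPP3, against at most 0.0408 CPM in WT MPP3, and with 1.43 to 9.81 CPM in KO LT-HSC, against 0 counts in WT LT-HSC. Emcn had a log2 fold change of -2.63 ± 0.53 in MPP2, -1.28 ± 0.50 in MPP3 and -0.71 ± 0.62 in LT-HSC, and Ganab had 0.78 ± 0.16, 0.13 ± 0.16 and 0.28 ± 0.20. The difference of effects, MPP2 minus MPP3, was -1.35 ± 0.70 for Emcn, -1.50 ± 0.50 for Ypel1 and 0.64 ± 0.22 for Ganab, each with an edgeR adjusted p of 1, so these genes cannot be called particular to MPP2. Krt18 and Hsph1 had the MPP2 sign in all 3 populations. Mecom and Hoxa9 had log2 fold changes of 0.14 and 0.10 in MPP3, but -0.81 and -0.48 in a fit, chosen after seeing the data, without KO MPP2 1, KO MPP3 1 and KO MPP3 2. Stem cell identity genes had a median of -0.05 in MPP3 with all libraries, -0.61 in MPP3 without those 3, with 5 of 30 higher, and 0.01 in LT-HSC. The folding list had medians of 0.28 in MPP3 with all libraries, 0.34 in MPP3 without the 3 and 0.12 in LT-HSC. Early erythroid genes had medians of 0.65 in MPP3 with all libraries, 1.14 in MPP3 without the 3 and 0.56 in LT-HSC. Without the 3 libraries no gene passed as a difference from MPP3 or from LT-HSC in edgeR, with 1165 and 992 at an unadjusted p under 0.05, and the difference from MPP3 was -1.50 ± 0.80 for Emcn, -0.92 ± 0.52 for Ypel1 and 0.62 ± 0.24 for Ganab (adjusted p 0.873 to 0.912). The populations share mice, so these values are not independent of the MPP2 values.

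**Figure D5:**
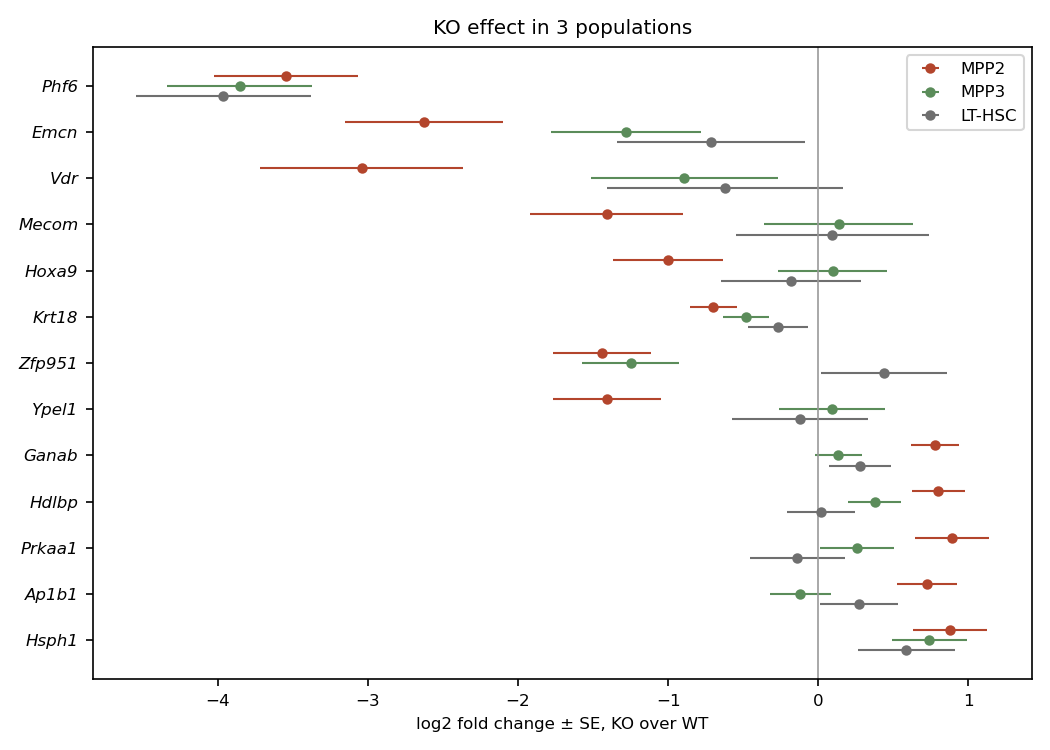
Log2 fold change (KO over WT, x axis) with SE for named genes in MPP2 (red), MPP3 (green) and LT-HSC (grey), from 1 edgeR fit to all libraries. Phf6 is far below 0 in all 3 populations, while Emcn, Vdr and Ganab lie farther from 0 in MPP2 than in the others, with no difference past the adjusted threshold.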

How the data were processed

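The authors deposited unnormalized counts of reads for each gene. The submitters' processing notes name STAR and mm10, and the counting program is not given in the sources used here. Across 21 libraries the table has 54446 gene IDs, of which 54409 matched GENCODE M21. All libraries were fitted together in edgeR 4.0.16 (R 4.3.3; quasi-likelihood, robust, TMM factors, filterByExpr with a minimum count of 10 over 6 groups), with Benjamini-Hochberg adjustment at 0.05. DESeq2 1.42.0 and limma 3.58.1 voom were alternatives, with RLE factors, no filter, the MPP2 libraries alone, a block for the number, a term for numbers 1 and 2 against 3 and 4, and libraries left out. The procedure was run on simulated data with large changes planted in genes well expressed in WT. That simulation had no pair effect, no split of numbers 1 and 2 from 3 and 4, and no library like KO MPP2 1. It thus does not cover small fold changes or genes at 0 counts in WT, and its outcome is not used here. Floors of 3 counts cover counting error only.

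Deviations from group means correlated within same-numbered pairs (0.207 to 0.282 in the 4 pairs), but also between unlike numbers on the same side of the split of 1 and 2 from 3 and 4 (0.102 to 0.256), and were -0.278 to -0.125 across it. The numbers were taken to pair the samples because the design describes pairs of mice.

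Members and gene lists were chosen with earlier results of these data known. Named were Phf6, called genes, and the 12 higher and 12 lower genes of smallest p. The latter had 10 CPM or more in the higher group and 1 direction in all pairs. From each list up to 3 tested members of smallest p were named, so their separation of the groups follows in part from that choice. Sva, Vdr, Art2b, 2610307P16Rik, Flt3, Gata1, Pf4 and Igkc were named after their values were seen. One gene called in MPP2 and 1 of the lower genes are not reported here.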

Additional observations from a re-analysis of the deposited data

Results flagged for a closer look

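In 162 checks of a single library against the other 3 of its group, 19 values lay apart by Dixon's 95% limit for 4 samples. For normally distributed values that limit flags about 1 in 20 groups by chance. A lone nonzero count among zeros is always flagged, and many of the genes were named for their values. The 19 therefore cannot be set against that rate. Of the 19, 15 were in KO libraries and 11 of those in KO MPP2 1. That library was far above the other KO libraries for antibody genes (45.8% of counts), Igkc (403890 CPM), Jchain (44141 CPM), Xbp1 (3367 CPM), the neutrophil genes Ngp (3396 CPM), Camp (893 CPM) and Ly6g (27.3 CPM), Ly6a (1429 CPM), Tuba3b (56.0 CPM), Hdlbp (171 CPM) and Cd3e (0.775 CPM). Hdlbp is a gene of the comparison, and its 3 other KO libraries (111 to 119 CPM) also lay above all WT libraries (64.1 to 87.9 CPM). It was named for a small p and 1 direction in all pairs, so this is no separate support (edgeR adjusted p = 0.565).

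In other KO libraries, Aars (103 CPM) and Sec24c (96.0 CPM), a coat protein gene of secretory vesicles, were high in KO MPP2 4, Tyk2 (22.7 CPM) was low in KO MPP2 3, and Ypel1 (11.9 CPM) was high in KO MPP2 2. In WT, Zfp951 (33.8 CPM), Cd3e (0.163 CPM) and Tuba3b (0.0408 CPM) were high in WT MPP2 2, and Cd8a (0.0403 CPM) in WT MPP2 1; the last 3 are below or near the level of 3 counts.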

How the results depend on the processing

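The count of 3 called genes was 33 in DESeq2, 1 with the MPP2 libraries alone, 9 with the replicate block, 0 without pair 2, and 0 to 3 with 1 library left out (0 without KO MPP2 2 or 3, 1 without WT MPP2 1, 2 or 4). In fits chosen after seeing the data it was 1 without pair 1 and 1 within numbers 1 and 2. Phf6 in MPP2 was below 0 in every fit run, at -3.79 to -3.27 with 1 library left out, but missed the threshold with the replicate block (-3.42, adjusted p = 0.0556), without pair 2 (-3.48), without pair 1 (-3.29), with the block and without pair 1 (-3.19), within numbers 1 and 2 (-3.92) and within numbers 3 and 4 (-3.02). Sva in MPP2 was at 9.33 to 10.1 with 1 library left out, and missed it with the MPP2 libraries alone (9.67), with the replicate block (9.71, adjusted p = 0.0772), without pair 2 (9.32), with the block and without pair 1 (10.1), and within numbers 1 and 2 (9.74) or 3 and 4 (9.80). Genes whose KO effect differed from MPP3 numbered 0, but 14 in DESeq2, 1 with the block and without pair 1 and 2 within numbers 3 and 4; from LT-HSC, 0, 17 in DESeq2 and 2 within numbers 3 and 4. Of the genes named for their fold change, Ifit1, an interferon response gene, changed sign, with a log2 fold change of 1.35 but -0.34 within numbers 3 and 4. Of the sort and cell markers given as levels, 14 changed sign in at least 1 fit, none past the threshold, among them Ly6a (1.75, but -0.99 without KO MPP2 1) and Ly6g (4.16, but -6.34 without it). Medians of the neutrophil and the T and NK lists were below 0 (-2.43 and -1.48) without KO MPP2 1. The cause of these changes was not tested, other than fewer libraries in fits that leave some out. At 3 counts, levels under 0.0985 to 0.194 CPM cannot be told from 0.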
